A study of Mus musculus with 8 samples.

Results

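The genes described here are 10 elastic fibre and TGF-beta matrix genes of mouse embryonic fibroblasts (MEFs): the fibrillins Fbn1 and Fbn2, elastin (Eln), the fibulin Fbln5, the latent TGF-beta binding protein genes Ltbp1 and Ltbp2, the lysyl oxidases Lox and Loxl1, and the secreted matrix proteins Tgfbi and Postn. They were picked by symbol from the 24460 genes counted, for their shared role and with their levels across the doses known, so that their dose differences are a description. Calls from the fit over all genes are stated for them to place them among other genes, and they are no independent evidence. All 10 were found, and all 10 passed the filter on low counts that left 14296 genes.

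Subconfluent wild type MEFs, which are fibroblasts cultured from mouse embryos, were grown without RHPS4 (0 µM, n = 3 libraries) or with RHPS4 at 2 µM (n = 3) or 10 µM (n = 2). RHPS4 is a ligand of the G-quadruplex (G4) structures that guanine-rich nucleic acids fold into. The labels give 16 or 24 h of exposure for such cultures without saying which applies to these libraries, and every group shared the same high-glucose medium with serum. Strand-specific RNA-Seq of total RNA depleted of nuclear ribosomal RNA gave between 10455965 and 26688121 counts per library. The study used both doses to ask how nuclear genes respond when mitochondrial transcription or mtDNA copy number is disturbed.

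Elastic fibres let skin, arteries and lung recoil. Fibrillins assemble outside the cell into microfibrils, on which fibulins help to deposit elastin, and lysyl oxidases then cross-link the elastin through its lysines. The same microfibrils hold latent TGF-beta: TGF-beta is secreted in an inactive complex that latent TGF-beta binding proteins tether to the matrix until integrins, proteases or thrombospondin release it. Fibroblasts are a main source of all of these proteins, and TGF-beta in turn raises many matrix genes in them.

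The cultures carried fibroblast transcripts. The 11 fibroblast markers examined summed to at least 9256 CPM in every library, where CPM are the counts scaled to library size with edgeR's TMM method. Their sums at 10 µM, up to 9491 CPM, lay below the lowest at 0 µM, 9988 CPM, and 1 of them was called at 10 µM. Endothelial, epithelial and skeletal myoblast markers summed to at most 6.48, 4.23 and 2.30 CPM in any library. Blood cell markers moved with dose, from 22.9 to 24.2 CPM at 0 µM to 17.95 to 20.6 CPM at 2 µM and 15.5 to 17.8 CPM at 10 µM, with 1 of 5 called at 10 µM. The smooth muscle markers, which cultured fibroblasts also express, stood highest at 2 µM, at 288 to 307 CPM at 0 µM, 401 to 427 CPM at 2 µM and 286 to 287 CPM at 10 µM. Counts of mtDNA features also moved with dose, from 13.2 to 14.4% of a library at 0 µM to 7.40 to 8.26% at 2 µM and 5.33 to 6.32% at 10 µM. The part of any of these in the levels below was not tested.

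RefSeq sequence upstream of the transcription start (build GRCm38.p6) was at hand for 6 of the 10 genes, in 9 windows of 300 bases that run from 250 bases before to 50 bases after an annotated start. Because RHPS4 binds G4 structures, each window was searched on both strands for the usual G4 pattern, 4 runs of at least 3 G with 1 to 7 bases between runs. The pattern was present in 18.6% of all 32851 windows of the table and in 2 of the 9 windows here, those of Fbn1 and of the upstream start of Ltbp1. These matches are shown on their G-rich strand, with the G runs in capitals.
Fbn1, chr2:125506554-125506582, strand of the gene, 144 to 116 bases before the start: GGGGccGGGGGtGGGGtggtgatGGGGGG
Ltbp1, chr17:75005358-75005382, strand opposite to the gene, 171 to 147 bases before the start: GGGGctatGGGtcGGGtggacaGGG
The Fbn1 match lies before the RefSeq start used here, at 125506438. It is inside the longer span that GENCODE gives the gene, 125300594 to 125507993 on the minus strand, so it is not upstream of every annotated start. A match says that these letters occur, and not that a G4 forms there. The windows of Tgfbi, Fbln5, Postn and Ltbp2 held no match, which says only that the pattern is not in these windows.

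Upstream sequences are shown for Tgfbi, Fbln5 and Postn because their transcripts moved in different directions across the doses. Capitals mark the motifs searched, on either strand: TATAAA (the TATA box), CAGAC (the core bound by SMAD proteins, the transducers of TGF-beta), TGACTCA (AP-1) and GCGTG (the core bound by the aryl hydrocarbon receptor). No base was shared between matches of different motifs in the sequences shown.
Tgfbi, chr13:56609336-56609522, plus strand: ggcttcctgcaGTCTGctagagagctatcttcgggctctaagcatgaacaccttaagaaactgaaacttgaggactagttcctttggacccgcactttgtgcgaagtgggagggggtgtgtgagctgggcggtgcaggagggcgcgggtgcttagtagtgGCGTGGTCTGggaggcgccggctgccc
Fbln5, chr12:101819120-101819369, minus strand: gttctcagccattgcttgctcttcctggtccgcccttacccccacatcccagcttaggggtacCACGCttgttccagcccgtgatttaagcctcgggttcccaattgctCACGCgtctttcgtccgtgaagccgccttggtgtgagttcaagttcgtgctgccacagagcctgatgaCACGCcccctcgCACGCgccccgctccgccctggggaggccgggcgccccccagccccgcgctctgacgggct
Postn, chr3:54360857-54361106, plus strand: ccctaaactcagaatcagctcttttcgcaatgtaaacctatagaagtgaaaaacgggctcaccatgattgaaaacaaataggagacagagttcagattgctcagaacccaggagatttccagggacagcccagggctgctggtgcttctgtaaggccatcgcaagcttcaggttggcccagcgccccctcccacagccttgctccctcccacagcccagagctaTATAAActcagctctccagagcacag
The Postn window carried the TATA box, as did 13.6% of all windows. The Tgfbi window held CAGAC in 2 places, both on the opposite strand, and 49.6% of all windows held it at least once. It was present in 7 of the 9 windows here and so was not particular to Tgfbi. The Fbln5 window shown also held CAGAC, after the start and so outside the printed sequence. The Fbln5 window held GCGTG in 4 places. That core occurred at least once in 32.4% of all windows and in at least 4 places in 1.23% of them. TGACTCA, found in 5.20% of all windows, was in none of the 9 windows. The windows of Fbln5 at this start, Tgfbi and Postn had GC contents of 65.7%, 63.3% and 53.0%, against a median of 52.7% over all windows.

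Per length of transcript, the 10 genes spanned a wide range in untreated MEFs. Levels between genes are compared here as FPKM, the CPM divided by the length in kilobases of the longest annotated transcript. Loxl1 stood highest at 218 FPKM (210 to 230 over the 3 libraries), apart from all others. Ltbp1, at 110 FPKM, and Lox, at 105 FPKM, followed with overlapping libraries, and with exon unions as lengths Lox ranked above Ltbp1. Postn came next at 40.5 FPKM. Tgfbi, at 30.5 FPKM, and Ltbp2, at 29.7 FPKM, overlapped in turn. The fibrillins were lower, at 14.3 FPKM for Fbn1 and 8.81 FPKM for Fbn2, and the libraries of Fbn2 overlapped those of Fbln5, at 10.6 FPKM. Elastin itself was the lowest at 0.413 FPKM, with 16 to 36 counts in each of the 8 libraries. The cultures thus held abundant transcripts of the cross-linkers and binders of elastic fibres beside very few of elastin. At both 2 and 10 µM Ltbp2 stood above Tgfbi without overlap between the libraries, and at 10 µM Fbln5 also stood above Fbn1 without overlap. With exon unions as lengths, Ltbp2 (24.5 FPKM), Postn (24.3 FPKM) and Tgfbi (24.3 FPKM) ranked in that order in untreated cells but were nearly level.

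**Figure D1:**
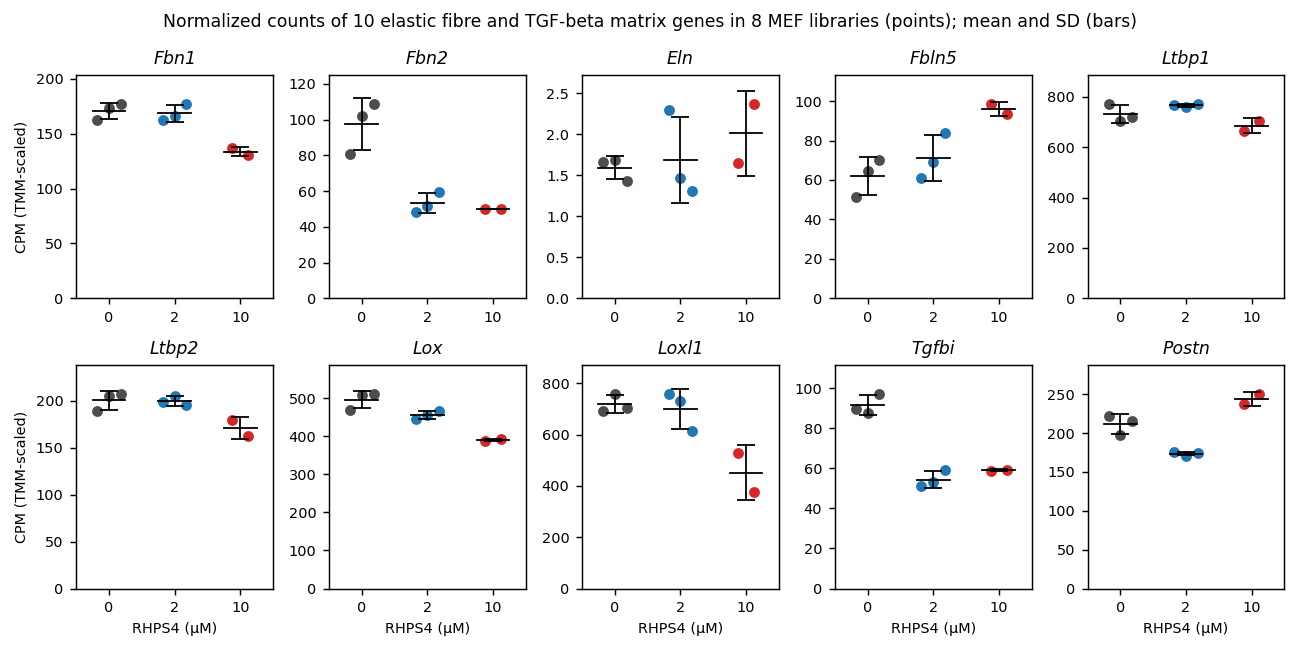
Normalized counts (CPM, y axes from 0, a separate scale for each gene) of the 10 genes at 0, 2 and 10 µM RHPS4 (x axes). Points are libraries, long bars means and capped bars SD (n = 3, 3 and 2); Fbn2 and Tgfbi were low at both doses, Loxl1, Lox and Fbn1 at 10 µM, and Fbln5 and Postn were highest at 10 µM.

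Across the doses the genes did not move as one. A gene was called where the adjusted p of a fit over all tested genes was below 0.01 and its fold exceeded 1.5, the thresholds of the study's methods. At 2 µM 2 of the 10 genes, Fbn2 and Tgfbi, were called and both were lower. Lower calls made up 0.378% of all tested genes in that comparison and higher ones 0.119%. At 10 µM 3 were called, again Fbn2 and Tgfbi together with Loxl1, all lower, against 1.14% of tested genes called lower and 1.95% called higher. Between 10 and 2 µM Loxl1 alone was called, lower at 10 µM, where 1.59% of tested genes were called lower and 3.92% higher. Since the genes were chosen with these values known, nothing is read from these counts. The median log2 fold change of the 10 genes was -0.030 at 2 µM and -0.29 at 10 µM, beside medians of -0.011 and 0.016 over all tested genes. Both doses were compared with the same 0 µM libraries. In bulk RNA, fewer cells that express a gene and less of its RNA per cell cannot be told apart.

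Fbn2 encodes the fibrillin typical of developing tissue and lies on chromosome 18. It had 81.0, 102 and 109 CPM at 0 µM, 48.5, 51.7 and 59.3 CPM at 2 µM, and 49.8 and 49.9 CPM at 10 µM. All treated libraries lay below all untreated ones, and the first 0 µM replicate was the lowest of its group. With its standard error (SE), the log2 fold change was -0.88 (SE = 0.111) at 2 µM and -0.97 (SE = 0.126) at 10 µM, which left 54.6% and 51.2% of the untreated mean. The doses themselves overlapped, with a log2 fold change between them of -0.096 (SE = 0.126). The call at 2 µM was lost without untreated replicate 2 or 3 (-0.84 and -0.79) and without the first or second 2 µM replicate (-0.81 and -0.85).

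Fbn1, the main fibrillin of adult microfibrils, lies on chromosome 2 from 125300594 to 125507993 (minus strand, GRCm38). It had 163, 173 and 177 CPM at 0 µM and 162, 166 and 177 CPM at 2 µM, so the untreated and 2 µM libraries overlapped. At 10 µM it had 137 and 131 CPM, below every other library, a log2 fold change of -0.36 (SE = 0.0768) that stayed under the fold of 1.5 and became -0.14 with total counts. Within a library the fibrillins can be compared without any scaling between libraries. Fbn2 made up 35.0 to 40.0% of fibrillin fragments per length at 0 µM, 24.5 to 26.6% at 2 µM and 28.3 to 29.3% at 10 µM, with no overlap between any of the doses. The log2 ratio of Fbn2 to Fbn1 counts averaged -0.82 ± 0.162 (SD, n = 3), -1.67 ± 0.0825 (SD, n = 3) and -1.42 ± 0.0503 (SD, n = 2).

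Eln, the gene for tropoelastin on chromosome 5 from 134702593 to 134747323 (minus strand), had 1.66, 1.69 and 1.43 CPM at 0 µM, 2.29, 1.47 and 1.31 CPM at 2 µM, and 1.65 and 2.37 CPM at 10 µM. The groups overlapped throughout. With at most 36 counts in a library, the standard errors of its log2 fold changes, 0.265 at 2 µM and 0.279 at 10 µM, were the widest of the 10 genes.

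Fbln5, a fibulin that binds elastin, integrins and Loxl1 and is needed for elastic fibre assembly, lies on chromosome 12 from 101746565 to 101819055 (minus strand). Its level was 51.4, 64.6 and 69.9 CPM at 0 µM, 61.0, 69.0 and 83.8 CPM at 2 µM, and 98.7 and 93.6 CPM at 10 µM. The 10 µM libraries were above all others, and the 0 and 2 µM libraries overlapped. The log2 fold change at 10 µM was 0.62 (SE = 0.139), past the fold of 1.5, but it was not called. It was called at 10 µM with DESeq2 (0.61) and with scaling to total counts (0.84). Fbln5 and Fbn2 thus moved apart. Their log2 ratio, chosen after the values were seen, was close to constant in untreated cells, at -0.66, -0.66 and -0.64, against 0.33, 0.42 and 0.50 in the 2 µM libraries and 0.99 and 0.91 in those at 10 µM. The low level of both genes in the first untreated replicate cancelled in this ratio.

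Ltbp1, which covalently binds the latent TGF-beta complex and anchors it to fibrillin, lies on chromosome 17 from 75005568 to 75392512 (plus strand). It was among the steadiest of the 10 genes, at 770.0, 704 and 720.4 CPM at 0 µM, 768, 759 and 772 CPM at 2 µM, and 666 and 706 CPM at 10 µM. The treated libraries of both doses overlapped the untreated ones, and the 10 µM libraries lay below those at 2 µM. The log2 fold changes were 0.068 (SE = 0.0683) at 2 µM and -0.094 (SE = 0.0765) at 10 µM, and the latter became 0.125 when libraries were scaled by total counts. Ltbp2, a relative that does not bind latent TGF-beta and competes for fibrillin, lies on chromosome 12 from 84783212 to 84876532 (minus strand). Its level was 189, 205 and 207 CPM at 0 µM, 199, 206 and 195 CPM at 2 µM, and 179 and 163 CPM at 10 µM. The 10 µM libraries were the lowest, with a log2 fold change of -0.23 (SE = 0.0783) that became -0.016 with total counts. An antisense gene, D030025P21Rik, overlaps its exons and was counted separately, and the strand setting of the counting is not given in the sources used here. Genes on the opposite strand also overlap exons of Fbn1, Fbn2, Eln and Lox, and these were not counted separately. The part of such overlaps in the levels was not tested. The log2 ratio of Ltbp2 to Ltbp1 overlapped between all 3 groups.

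The lysyl oxidases oxidise lysines of elastin and collagen so that they cross-link, and both were lower at 10 µM. Lox, on chromosome 18, had 469.7, 507 and 511 CPM at 0 µM, 445, 456 and 467 CPM at 2 µM, and 388 and 393 CPM at 10 µM. Its groups followed the dose without overlap, at -0.12 on the log2 scale (SE = 0.0662) for 2 µM and -0.35 (SE = 0.0746) for 10 µM, both under the fold of 1.5. With total counts these became -0.041 and -0.129. Loxl1, the member that Fbln5 directs to elastin, lies on chromosome 9 from 58287738 to 58313186 (minus strand). It had 692, 759 and 705 CPM at 0 µM, 757, 731 and 613 CPM at 2 µM, and 528 and 377 CPM at 10 µM. Both 10 µM libraries lay below all others, but they differed from each other by more than the untreated libraries did. The log2 fold change at 10 µM was -0.67 (SE = 0.137) against 0 µM and -0.63 (SE = 0.136) against 2 µM.
Without the second 10 µM replicate, the lower of the pair, the Loxl1 changes became -0.47 against 0 µM and -0.45 against 2 µM and neither was called. The call against 0 µM was also lost without untreated replicate 2 or 3 (-0.65 and -0.68) or the first or second 2 µM replicate (-0.671 and -0.67). The call against 2 µM was lost without the same libraries, at -0.654, -0.627, -0.575 and -0.602, and with total counts (-0.497). The Loxl1 call against 0 µM was lost as well with total counts (-0.453), with TMM over nuclear genes (-0.668), with at least 10 counts in every library (-0.663) and with only the compared groups (-0.668). Within a library, Loxl1 made up 66.5 to 68.3% of the fragments of Lox and Loxl1 per length at 0 µM, 65.4 to 71.0% at 2 µM, and 66.2% and 58.0% at 10 µM.

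Tgfbi and Postn both encode secreted proteins built from FAS1 domains that link collagens to integrins, and both are known targets of TGF-beta. They went together at 2 µM and apart at 10 µM. Tgfbi, on chromosome 13 from 56609523 to 56639562 (plus strand), had 89.9, 87.8 and 97.2 CPM at 0 µM, 51.2, 53.0 and 59.1 CPM at 2 µM, and 58.7 and 59.4 CPM at 10 µM. Every treated library was below every untreated one and the doses overlapped. The log2 fold changes were -0.75 (SE = 0.0769) at 2 µM and -0.64 (SE = 0.0865) at 10 µM, leaving 59.4% and 64.4% of the untreated mean. The 2 µM call was lost without the second 2 µM replicate (-0.73). The 10 µM call was lost without the second 10 µM replicate (-0.67) and with scaling to total counts (-0.42).
Postn encodes periostin, which also promotes the cross-linking of collagen, and lies on chromosome 3 from 54361109 to 54391037 (plus strand). It had 222, 198 and 215 CPM at 0 µM, 175, 171 and 175 CPM at 2 µM, and 238 and 250.5 CPM at 10 µM. It was lowest at 2 µM and highest at 10 µM, and no groups overlapped. The log2 fold change was -0.28 (SE = 0.0679) at 2 µM, 0.21 (SE = 0.0752) at 10 µM and 0.49 (SE = 0.0751) between the doses, all under the fold of 1.5. Scaled by total counts, the changes were 0.425 at 10 µM and 0.627 between the doses, and with that scaling Postn was the only one of the 10 genes called between the doses. The log2 ratio of Postn to Tgfbi averaged 1.21 ± 0.0838 (SD, n = 3) in untreated cells, then 1.68 ± 0.106 (SD, n = 3) and 2.05 ± 0.0405 (SD, n = 2) with increasing dose, with no overlap between groups.

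**Figure D2:**
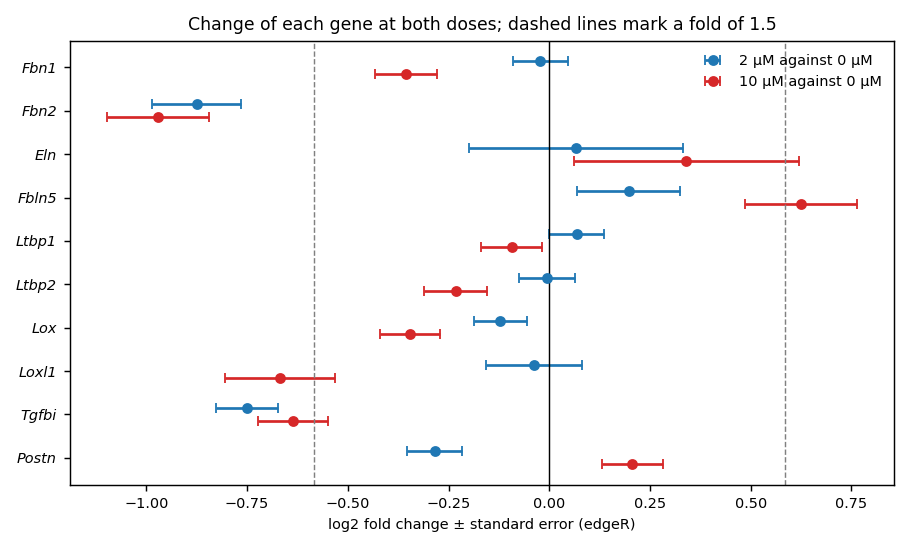
Log2 fold change (x axis) of each of the 10 genes (y axis) at 2 µM and at 10 µM RHPS4 against 0 µM, with standard errors as bars and dashed lines at a fold of 1.5. Fbn2 and Tgfbi lie left of the line at both doses, Loxl1 at 10 µM, and Fbln5 lies right of it at 10 µM.

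Whether or not a gene was called, the libraries of 4 genes (Fbn2, Lox, Tgfbi and Postn) were all lower at 2 µM than at 0 µM and those of no gene all higher. Of all tested genes, 12.9% were lower in this way and 12.7% higher, which makes 25.7% in either direction. At 10 µM 6 genes (Fbn1, Fbn2, Ltbp2, Lox, Loxl1 and Tgfbi) had all libraries below the untreated ones and 2 (Fbln5 and Postn) above, beside 20.0% and 22.9% of tested genes and 42.9% in either direction. Between the doses 5 genes (Fbn1, Ltbp1, Ltbp2, Lox and Loxl1) were lower in both 10 µM libraries than in all 2 µM libraries and 2 (Fbln5 and Postn) higher, beside 24.9% and 27.0% of tested genes and 51.8% in either direction. With total counts in place of TMM, the median log2 fold change of all genes shifted by 0.215 at 10 µM, and the share of that dose's calls that were higher went from 63.1% to 92.6%, so that small differences at 10 µM depend on the scaling.

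**Figure D3:**
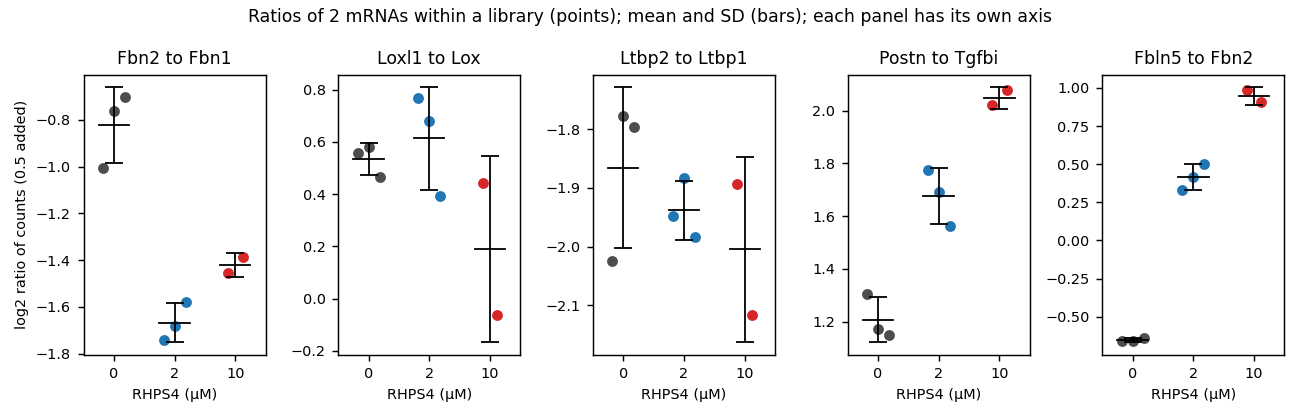
Log2 ratio of 2 mRNAs within each library (y axes, 0.5 added to each count, a separate scale for each panel) at 0, 2 and 10 µM RHPS4. Points are libraries, long bars means and capped bars SD; the Fbn2 to Fbn1, Postn to Tgfbi and Fbln5 to Fbn2 ratios do not overlap between doses, while the Ltbp2 to Ltbp1 ratio overlaps throughout.

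Other genes of elastic fibres and of TGF-beta signalling were taken from a list written from general knowledge of the pathway, which contains none of the 10 genes. The list was written with earlier results of these data known, so its counts too are a description and no independent evidence. Of 88 genes listed, 79 were tested. At 2 µM 3 rose and 1 fell, at 10 µM none rose and 3 fell, and between 10 and 2 µM 1 was higher and 4 were lower at 10 µM. The shares called among all tested genes were 0.497%, 3.09% and 5.51%. At an unadjusted p under 0.05, 12 were higher and 19 lower at 2 µM and 3 were higher and 25 lower at 10 µM. Of all tested genes, 10.1% were higher and 11.2% lower by that measure at 2 µM, and 14.8% and 14.6% at 10 µM. DESeq2 also called 4, 3 and 5 of the 79 genes. The median log2 fold change of the 79 genes was -0.12 at 2 µM and -0.16 at 10 µM.

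Of the other microfibril and fibulin genes, none of the 14 tested was called at any comparison by edgeR or DESeq2, and 12 and 11 of them had a log2 fold change below 0 at 2 and 10 µM, as did 51.8% and 47.9% of all tested genes. Those with an unadjusted p under 0.05 numbered 6 for 2 µM, 3 for 10 µM and 4 for the difference between the doses, where all tested genes gave 21.3%, 29.4% and 36.5%. Emilin1, a glycoprotein at the boundary of elastin and microfibrils, had the smallest unadjusted p of the group, with 124, 97.1 and 116 CPM at 0 µM and 75.3, 77.5 and 88.2 CPM at 2 µM. Its log2 fold change was -0.48 (SE = 0.123, with edgeR's adjusted p = 0.0526). Efemp1, the fibulin also known as fibulin-3, changed by -0.23 at 2 µM (SE = 0.0694, with edgeR's adjusted p = 0.0857). Mfap4 and Mfap5, microfibril-associated glycoproteins, had too few counts to be tested, with at most 6 and 15 counts in a library.

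Other genes whose products bind TGF-beta or hold its latent form gave no call among 6 tested by edgeR or DESeq2. All 6 had log2 fold changes below 0 at both doses, beside the 51.8% and 47.9% of all tested genes. Those with an unadjusted p under 0.05 were 2, 3 and 1 in the same order, against the same 21.3%, 29.4% and 36.5%. Lrrc32 (GARP), which presents latent TGF-beta at the cell surface, had 2.91, 3.96 and 3.18 CPM at 0 µM, 1.41, 1.96 and 1.60 CPM at 2 µM, and 2.93 and 2.66 CPM at 10 µM. Its change at 2 µM was -1.03 (SE = 0.200, with edgeR's adjusted p = 0.0207), past the fold but not the adjusted p. Dcn, the proteoglycan decorin that binds TGF-beta and collagen, changed by -0.48 at 2 µM (SE = 0.094, with edgeR's adjusted p = 0.0221).

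Among 9 other lysyl oxidases and their activators, only Loxl2 was called at 10 µM against 0 µM, and it fell. Of all tested genes, 1.14% were called lower there. At an unadjusted p under 0.05, 4 of the 9 were lower and 0 higher at 10 µM, beside 14.6% and 14.8% of all tested genes. At that dose 8 of the 9 had a log2 fold change below 0, as did 47.9% of all tested genes. Loxl2, a lysyl oxidase of collagen IV, had 13.3, 12.3 and 13.8 CPM at 0 µM, 10.3, 9.54 and 9.69 CPM at 2 µM, and 8.61 and 7.91 CPM at 10 µM, with no overlap between groups. The log2 fold change at 10 µM was -0.67 (SE = 0.115, with edgeR's adjusted p = 0.00371). The call was lost without the third 0 µM replicate (-0.617), the first 10 µM replicate (-0.761) or the second (-0.637), with total counts (-0.452) and with only the compared groups (-0.666). Pcolce2, an enhancer of the protease that matures procollagen, was lower at 10 than at 2 µM by a log2 fold change of -0.72 (SE = 0.143, with edgeR's adjusted p = 0.00476). Its call was lost without the first or second 2 µM replicate (-0.745 and -0.666), without the first or second 10 µM replicate (-0.666 and -0.853), and with total counts (-0.586).

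Of 11 TGF-beta ligands and activators, Thbs1 rose at 2 µM and none was called by edgeR or DESeq2 at 10 µM against 0 µM. At an unadjusted p under 0.05, 1 was higher and 3 lower at 2 µM, and 0 were higher and 4 lower at 10 µM. Of all tested genes, 21.3% and 29.4% passed that measure at these doses. Thbs1 encodes thrombospondin-1, which releases active TGF-beta from its latent complex. It had 479, 449 and 438 CPM at 0 µM, 741, 762 and 769.5 CPM at 2 µM, and 449 and 449.8 CPM at 10 µM. The log2 fold change was 0.73 at 2 µM (SE = 0.0667, with edgeR's adjusted p = 0.000514) and -0.75 between 10 and 2 µM (SE = 0.0758, with edgeR's adjusted p = 7.67e-05). Without the second 2 µM replicate the first of these missed the threshold (0.731, adjusted p = 0.0104 from edgeR). At 10 µM against 0 µM the change was -0.020 (SE = 0.0743), and 0.198 with total counts. Tgfb2, a ligand, went the other way, with 7.06, 6.74 and 7.38 CPM at 0 µM, 4.41, 4.32 and 5.35 CPM at 2 µM and 7.94 and 7.27 CPM at 10 µM. It was higher at 10 than at 2 µM by 0.68 (SE = 0.146, with edgeR's adjusted p = 0.00700), while the change at 2 µM missed the threshold (-0.58, adjusted p = 0.0374 from edgeR). The call was lost without any 1 of 6 libraries, namely the second and the third 0 µM (0.659 and 0.687), the first and second 2 µM (0.635 and 0.622) and both 10 µM replicates (0.574 and 0.703), and also with DESeq2 (0.672) and with only the compared groups (0.68).

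None of the 16 TGF-beta receptor, SMAD and SMAD regulator genes tested was called at any comparison by edgeR, and 2, 2 and 4 had an unadjusted p under 0.05 (21.3%, 29.4% and 36.5% of all tested genes). Their median log2 fold change was 0.019 at 2 µM and -0.017 at 10 µM. The smallest unadjusted p belonged to Smad7, the feedback inhibitor that TGF-beta induces, which was lower at 10 than at 2 µM by -0.40 (SE = 0.102, with edgeR's adjusted p = 0.0158). Pmepa1, another induced inhibitor, differed by -0.91 (SE = 0.265, with edgeR's adjusted p = 0.0288) between these doses and was called there by DESeq2, the only call of that tool in this group.

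Of 18 other transcripts known to be induced by TGF-beta, Ctgf and Tagln rose and Bhlhe40 fell at 2 µM, and Ctgf and Bhlhe40 fell at 10 µM. At an unadjusted p under 0.05, 9 were higher and 3 lower at 2 µM, and 2 were higher and 8 lower at 10 µM. Of all tested genes, 10.1% were higher and 11.2% lower by that measure at 2 µM, and 14.8% and 14.6% at 10 µM. Ctgf, a matricellular growth factor, had 41.9, 39.4 and 38.3 CPM at 0 µM, 61.8, 57.5 and 63.4 CPM at 2 µM, and 24.4 and 26.4 CPM at 10 µM, with no overlap. Its order across the doses was the reverse of that of Postn, which was lowest at 2 µM and highest at 10 µM. Between 10 and 2 µM Ctgf changed by -1.26 (SE = 0.0899, with edgeR's adjusted p = 6.48e-06). Tagln, an actin-binding protein, had 84.4, 65.8 and 69.8 CPM at 0 µM, 124, 115 and 118 CPM at 2 µM, and 74.4 and 89.3 CPM at 10 µM. Its log2 fold change at 2 µM was 0.70 (SE = 0.101, with edgeR's adjusted p = 0.00451). Bhlhe40, a transcriptional repressor of the circadian and hypoxic responses, had 40.6, 49.8 and 53.8 CPM at 0 µM, 28.2, 27.3 and 25.3 CPM at 2 µM, and 21.1 and 15.3 CPM at 10 µM. Its log2 fold changes were -0.85 (SE = 0.128, with edgeR's adjusted p = 0.00629) and -1.41 (SE = 0.150, with edgeR's adjusted p = 0.000158). Adam12, a metalloprotease, was lower at 10 than at 2 µM by -0.73 (SE = 0.117, with edgeR's adjusted p = 0.00156).
The 2 µM calls of Ctgf, Tagln and Bhlhe40 were lost without any 1 of the second and the third 0 µM or the 3 2 µM replicates, with changes of 0.584 to 0.654, 0.637 to 0.726 and -0.881 to -0.758. That of Bhlhe40 was also lost with total counts (-0.769). The 10 µM call of Ctgf was lost without the first 10 µM replicate (-0.622) and with total counts (-0.433), and that of Adam12 without the second 10 µM replicate (-0.612).

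Elastin-degrading enzymes gave no call among 5 tested by edgeR or DESeq2, and 1, 2 and 0 of them had an unadjusted p under 0.05 (21.3%, 29.4% and 36.5% of all tested genes). Ctsl, the lysosomal protease cathepsin L, changed by 0.33 at 10 µM (SE = 0.0975, with edgeR's adjusted p = 0.0418), and Mmp2, gelatinase A, by -0.25 (SE = 0.102, with edgeR's adjusted p = 0.131).

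**Figure D4:**
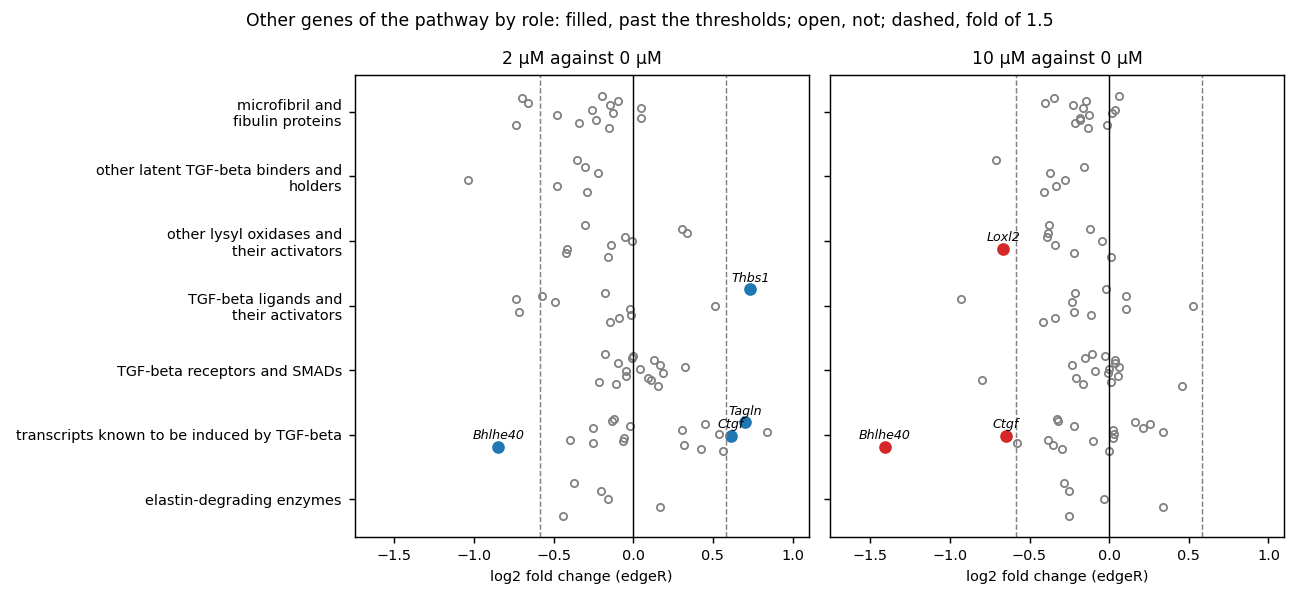
Log2 fold change (x axes) of the 79 other pathway genes by role (y axis), at 2 µM (left) and at 10 µM (right) against 0 µM; filled points passed an adjusted p of 0.01 and a fold of 1.5 (dashed lines). Thbs1, Ctgf and Tagln were higher and Bhlhe40 lower at 2 µM, and Loxl2, Ctgf and Bhlhe40 were lower at 10 µM.

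The likeness of profiles was measured as the root mean square distance between log2 CPM values centred on their mean over the 8 libraries. Among the 10 genes, Fbn1 and Lox were the closest pair, at 0.0573, and Fbn2 was nearest to Tgfbi, at 0.161. Fbln5 was farthest from Fbn2, at 0.654. Outside the 10 genes, those nearest to Fbn2 were Megf10 (0.135), Gpr153 (0.137), Nr4a1 (0.138), Esyt3 (0.149) and Gpr146 (0.156), where the median distance of all tested genes was 0.506. Nearest to Loxl1 were Hnrnph1 (0.0413), Nsdhl (0.0743), Nes (0.0766), Lrrc8b (0.0782) and Pfn1 (0.0859), against a median of 0.383. These genes shared with Loxl1 a low value in 1 library. In the second 10 µM replicate their centred log2 CPM were -0.735 to -0.594, against -0.307 to -0.148 in the first. Loxl1 itself had -0.74 and -0.26 there. Nearest to the mean profile of the 10 genes were Per2 (0.0309), Pde7a (0.0317), Ano6 (0.0336), 2310022B05Rik (0.0352) and Phf1 (0.0386), against a median of 0.222. That mean profile was itself nearly flat, with a root mean square of 0.0985, below that of either Fbn2 (0.457) or Loxl1 (0.326).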

How the data were processed

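The deposited files hold, per library, raw counts of read fragments per gene as whole numbers. Per the labels and the study's methods, the authors trimmed the reads with Trim Galore and cutadapt, aligned them to mm10 with STAR 2.5.2a and counted uniquely mapped fragments with featureCounts. The strand setting, the annotation and the featureCounts version are not given in the sources used here. Total counts ran from 10455965 to 26688121, so 3 counts correspond to 0.112 to 0.287 CPM. Such floors cover counting error only. No replicates were duplicates, as even the most alike pair had a chi-square over its degrees of freedom of 3.23, above the value near 1 of sampling noise. The first 0 µM replicate differed most from its partners, at 15.4 and 20.2, where the other pairs reached at most 10.6. Without it, 144 genes were called at 2 µM in place of 71. No source says that replicates were separate cultures, so p-values measure the spread between these libraries, which may be technical.

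Counts were fitted in R 4.3.3 with edgeR 4.0.16 (TMM, filterByExpr, quasi-likelihood test, Benjamini-Hochberg adjustment over 14296 genes), with dose as the only factor over all 8 libraries. The standard error is the log2 fold change divided by the square root of F. The procedure was tested on simulated counts. Ratios used 0.5 added to each count. Lengths and positions came from GENCODE M21 (GRCm38, the assembly named mm10), which may not be the annotation used for counting. The members and lists were chosen with earlier results of these data known. Genes named were all members, every called gene of the lists, the 2 smallest p in a group without calls, and the 5 nearest profiles to Fbn2, Loxl1 and the mean. Alternatives were RLE, total counts, TMM over nuclear genes, no filter, at least 10 counts, DESeq2 1.42.0, no minimum fold, only the compared groups, the replicate number as a block, each library left out, and 5 added in ratios. Other steps used Python 3.11.15, pandas 2.3.3 and matplotlib 3.10.9.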

Additional observations from a re-analysis of the deposited data

How the results depend on the processing

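At 2 µM, leaving out 1 library gave 0 to 2 of the 10 genes called and 0 to 7 of the other pathway genes, with none without the second 2 µM replicate and 7 without the first 0 µM replicate. At 10 µM the ranges were 1 to 3 and 1 to 4, and between the doses 0 to 1 and 3 to 9. With no minimum fold change, 2 of the 10 genes (Loxl1 and Postn) and 9 of the other genes were called between the doses, and 9 of the other genes without a filter on low counts. With total counts, 1 of the other genes was called at 10 µM, and Postn in place of Loxl1 was called between the doses. Total counts turned the sign of small changes, to 0.058 for Fbn1, 0.075 for Ltbp2 and 0.044 for Loxl1 at 2 µM, to 0.125 for Ltbp1 and 0.198 for Thbs1 at 10 µM, and to 0.04 for Fbn2 between the doses. They raised the share of higher calls among all genes from 23.9% to 39.4% at 2 µM, from 63.1% to 92.6% at 10 µM and from 71.2% to 91.7% between the doses. Over all genes, 71, 442 and 788 were called in these 3 comparisons in turn. These became 107, 747 and 1539 with no minimum fold change, 914 at 10 µM with total counts, and 119 at 2 µM with DESeq2, by which 52.9% of the 10 µM calls were higher. Leaving out 1 library gave 6 to 144, 235 to 633 and 444 to 884. Ltbp2 at 2 µM also changed sign with TMM over nuclear genes (0.005) and with only the compared groups (0.003), and with libraries left out (-0.038 to 0.019). Other changes near 0 turned when a library was left out, for Fbn1 (-0.056 to 0.005), Eln (-0.187 to 0.253) and Loxl1 (-0.096 to 0.054) at 2 µM, for Tagln at 10 µM (-0.001 to 0.26) and for Eln between the doses (-0.034 to 0.524). The cause of these shifts was not tested.

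Same-numbered libraries at 0 and 2 µM deviated together with correlations of 0.199, 0.085 and 0.161, and 6 of 6 correlated best with their own number. Those of 10 µM gave -0.145 to -0.021. With 2 libraries at 10 µM, deviations from the group mean are mirror images, so these values cannot decide on pairing. The main fit did not pair the samples, although the 0 and 2 µM libraries may be paired. With the replicate block, 2 of the other pathway genes (Ctgf and Thbs1) were called at 2 µM in place of 4. Over all genes, 54 were called at 2 µM in place of 71, and 322 at 10 µM in place of 442. Under the block Fbln5 was called at 10 µM (0.75), and Loxl1 (-0.735), Tgfbi (-0.581) and Loxl2 (-0.655) were not. Adding 5 counts moved no ratio by more than the spread between replicates. Eln, at 16 to 36 counts, is the gene of the 10 that depth limits most.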
